A study of Mus musculus with 250 samples.

Results

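The cytochrome P450 family was followed in female FVB mice carrying Her2/Neu-driven mammary tumors. Its members were taken as every gene whose symbol is Cyp followed by a digit among probe sets with a single gene symbol. That gave 73 of the 18194 genes on the array, 2 of them transcribed pseudogenes (Cyp2d13 and Cyp4f41-ps), in 16 families and 35 subfamilies. Where a gene had several probe sets, the one with the highest mean was used, which applied to 19 members.

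Liver, breast, spleen, blood cells (plasma removed) and thymus were profiled from 25 tumor-bearing mice and 25 control mice, 250 arrays in all. Tumor-bearing mice carried the MMTV-rtTA and TetO-NeuNT transgenes together, so that doxycycline induced the activated Neu oncogene under a mammary tumor virus promoter. Controls were littermates with TetO-NeuNT alone, matched by age and cage to a named tumor-bearing mouse. All mice, controls included, were given drinking water with doxycycline (2 mg/mL) and sucrose (5%) from an age of 8 weeks. Tissue was collected once the tumor measured 1 cm, and the age at that point is not given in the sources used here. The tumor-bearing breast samples are tumor tissue and the control samples are whole normal breast.

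P450 enzymes are heme proteins that insert 1 oxygen atom into lipids, steroids and foreign compounds, most of them in the endoplasmic reticulum with electrons from P450 oxidoreductase. The liver holds the richest set, in which the Cyp1 to Cyp3 families handle mainly drugs and xenobiotics, Cyp4 enzymes hydroxylate fatty acids, and Cyp7, Cyp8, Cyp27 and Cyp39 enzymes make bile acids from cholesterol. Nuclear receptors such as CAR, PXR, PPARα and FXR set the transcription of many of them, and inflammation is known to lower many hepatic P450 transcripts.

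Levels below are log2 intensities and changes are log2 differences, tumor-bearing minus matched control, given as mean ± SE over pairs. A change was called at an adjusted p under 0.05 in limma with the matched pair as a block, adjusted over all 18194 genes of the tissue, and "rose" and "fell" refer to called changes. Arrays that stood apart from the other arrays of their tissue were found from their correlations: control 2, 7 and 8 and tumor-bearing 15 and 17 in liver, 1 breast array, 3 spleen arrays, 5 blood arrays and 1 thymus array. Liver control 2 was the least like its tissue (median Spearman correlation 0.329 with the other liver arrays). There 46 members lay below and 13 above the range of the 45 liver arrays that did not stand apart (all genes not counted). Results are therefore given for all 25 pairs and without pairs that hold an outlying array, which leaves 20 liver pairs, 24 breast pairs, 23 spleen pairs, 21 blood pairs and 24 thymus pairs. The sample identifiers form a first series of 10 pairs and a second of 15, and the labels do not say what the series records. The array medians differed between tissues (from 25.2 in blood to 129 in thymus, as linear intensities), so levels are compared within a tissue only. Each array of a tissue came from a separate mouse by its labels, and the number of arrays limits the precision.

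In liver, P450 transcripts fell more often than they rose. With all 25 pairs, 14 of 73 members fell and 4 rose, against 2.28 percent lower and 7.89 percent higher calls among all genes. Without outlying arrays, 41 members fell and 4 rose, against 18.9 and 18.6 percent of all genes. The median change of the members was -0.13 (all genes 0.0067) and -0.20 without outlying arrays (all genes -0.0050). Leaving out liver pair 2 alone gave 36 lower and 4 higher members. The first identifier series alone gave 1 lower and 0 higher, and the second series alone 38 lower and 4 higher. The shares of all genes called without pair 2 and in each series are not given here. Those counts therefore do not set the family apart from other genes. Of the 10 first-series pairs 7 hold no outlying array, and pairs 2 and 7 are among those that do. In the 7 kept pairs all 41 members called lower without outlying arrays had a mean change below 0 (median -0.45). So they did in the 13 kept pairs of the second series (median -0.49), but these same pairs gave the 41 calls. Whole liver was measured, so fewer cells of a type and less RNA per cell cannot be told apart.

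Other cell types and the acute phase moved in the same livers. The neutrophil list rose in 10 of 10 members by 3.10 ± 0.19, from control means between 5.39 and 6.14 to tumor-bearing means between 6.82 and 10.71. The acute phase list rose by 1.40 ± 0.17 (10 of 15 members higher, 15 of 15 without outlying arrays). The fibroblast list rose in 5 of 7 members (0.82 ± 0.13) and the endothelium list in 4 of 7 (0.54 ± 0.12). None of the 9 measured hepatocyte markers passed with all pairs, and 3 rose and 3 fell without outlying arrays. The 3' to 5' signal differences of Gapdh and actin, a sign of RNA quality, changed by -0.05 ± 0.04 and -0.07 ± 0.05. The part of these lists in the P450 changes was not tested.

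The fatty acid hydroxylases of the Cyp4a subfamily held the member with the largest liver change. Cyp4a14, a lauric acid ω-hydroxylase and a classic PPARα target, lay between 4.79 and 9.21 (median 5.76) in tumor-bearing livers and between 8.06 and 12.70 (median 11.02) in controls. The ranges overlapped only at their edges, and the tumor-bearing mouse was lower in 25 of 25 pairs. Cyp4a14 fell 24.8-fold, by 4.63 ± 0.27 on the log2 scale (adjusted p = 1.27e-13), and by 4.68 ± 0.32 without outlying arrays. It fell by 5.17 ± 0.54 in the first identifier series and by 4.27 ± 0.25 in the second. Cyp4a31 lay between 6.54 and 8.07 (median 7.07) against 5.92 to 8.87 (median 7.98) in controls, with overlapping groups. It fell by 0.74 ± 0.12 (adjusted p = 3.05e-05), in 23 of 25 pairs. Cyp4a12a, known as a male-predominant fatty acid hydroxylase, was dim in these female livers (mean 4.40) and fell by 0.29 ± 0.07 only without outlying arrays.

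The Cyp4f subfamily, which hydroxylates leukotrienes and long-chain fatty acids, moved in both directions. Cyp4f16 lay between 6.45 and 7.82 in tumor-bearing livers (median 7.44) and between 6.13 and 7.34 in controls (median 6.87), and rose by 0.55 ± 0.08 (23 of 25 pairs higher). Cyp4f18, which degrades leukotriene B4 in mouse neutrophils, rose by 0.34 ± 0.09 from a low control median of 4.27 (adjusted p = 0.0078), while the neutrophil list rose as given above. The other Cyp4f18 probe set was not called and lay on the other side of 0 (-0.23 ± 0.15 with all pairs and -0.07 ± 0.06 without outlying arrays), so the rise rests on 1 of its probe sets. Without outlying arrays Cyp4f13 (-0.29 ± 0.04), Cyp4f14 (-0.44 ± 0.05) and Cyp4f15 (-0.20 ± 0.04) fell. Cyp4f39 (0.10 ± 0.04) and the pseudogene Cyp4f41-ps (-0.02 ± 0.04) were not called. Cyp4v3, an ω-hydroxylase of medium-chain fatty acids and among the brighter members (tissue mean 12.51), fell by 0.34 ± 0.04 without outlying arrays, and Cyp4b1 by 0.26 ± 0.08.

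Of 6 members that make bile acids, 3 fell with all pairs and 5 without outlying arrays. Cyp7b1, the oxysterol 7α-hydroxylase of the alternative pathway, lay between 8.23 and 11.22 (median 10.02) in tumor-bearing livers and between 7.90 and 12.16 (median 11.29) in controls. The control minimum belonged to an outlying array and the groups overlapped. Cyp7b1 fell by 1.25 ± 0.22 (adjusted p = 1.04e-04), in 24 of 25 pairs, and by 1.30 ± 0.14 in 20 of 20 pairs without outlying arrays. A dimmer probe set of Cyp7b1 was not called with all pairs (-0.17). Cyp39a1, which hydroxylates 24-hydroxycholesterol, lay between 6.39 and 8.95 (median 7.96) against 5.03 to 9.99 (median 9.03). It fell by 0.97 ± 0.23 (adjusted p = 0.0029) and by 1.21 ± 0.11 without outlying arrays. In the first identifier series Cyp39a1 changed by -0.32 ± 0.47 with all 10 pairs and by -0.86 ± 0.10 in the 7 kept ones, and in the second by -1.41 ± 0.17. Cyp46a1, the cholesterol 24-hydroxylase known mainly from neurons, lay between 6.37 and 7.46 (median 6.95) against 6.57 to 8.38 (median 7.64), and fell by 0.70 ± 0.10 in 22 of 25 pairs.

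Cyp7a1 and Cyp8b1 belong to the classical pathway of bile acid synthesis, and Cyp27a1 starts the alternative one. Cyp7a1, the rate-limiting cholesterol 7α-hydroxylase, spanned 8.89 to 13.10 (median 11.44) in tumor-bearing livers and 5.72 to 13.03 (median 11.88) in controls. The groups overlapped almost wholly, its change of -0.36 ± 0.29 was not called with all pairs, and it fell by 0.61 ± 0.18 without outlying arrays (15 of 20 pairs lower). Cyp27a1, the mitochondrial sterol 27-hydroxylase, had tumor-bearing and control medians of 12.04 and 12.58, and fell by 0.60 ± 0.07 without outlying arrays, in 20 of 20 pairs. Cyp8b1, the sterol 12α-hydroxylase that sets the share of cholic acid, was not called in either set (0.43 ± 0.21 and 0.14 ± 0.12). Of 10 partner genes of bile acid synthesis and transport, 1 fell with all pairs, and 4 fell and 2 rose without outlying arrays. Baat, which conjugates bile acids to taurine and glycine, fell by 0.28 ± 0.07 (adjusted p = 0.0124). Acox2 and Hsd3b7, which act on side chain and ring, rose by 0.14 ± 0.04 and 0.12 ± 0.04 without outlying arrays. Cyp51, the lanosterol demethylase of cholesterol synthesis, changed by 0.16 ± 0.24 and by -0.0033 ± 0.08 without outlying arrays.

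**Figure D1:**
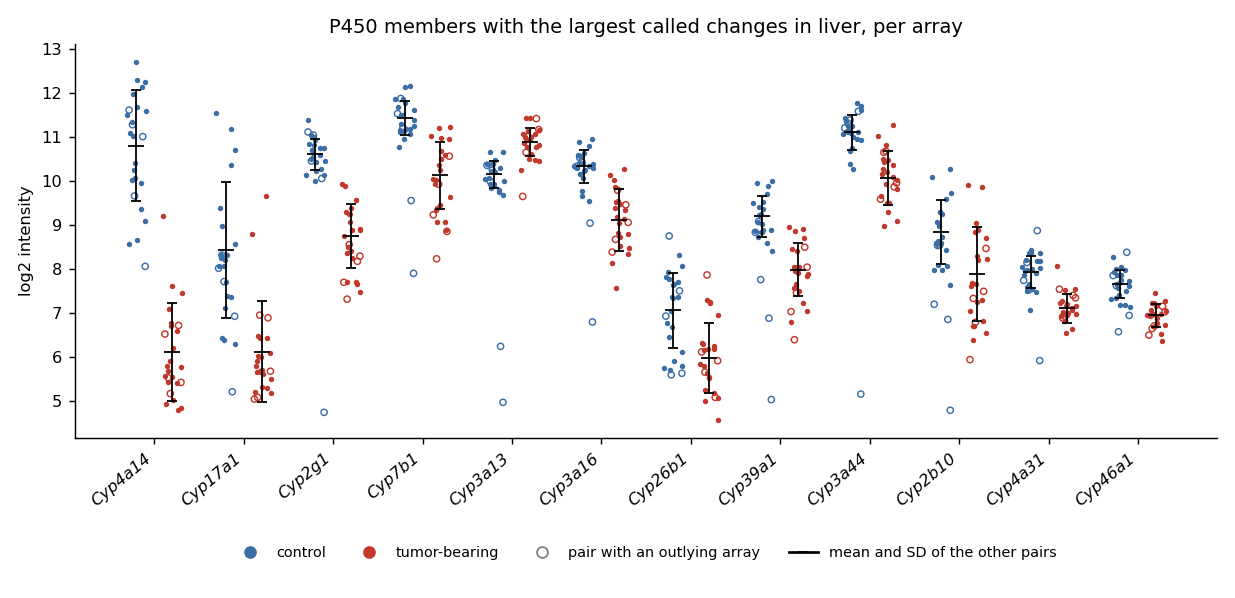
Log2 levels of the 12 P450 genes with the largest called liver change, 1 point per array, tumor-bearing and control side by side. Open circles belong to pairs with an outlying array, and black marks give mean ± SD of the other pairs. Cyp4a14 control arrays lay at 8.06 or above while the tumor-bearing median was 5.76, and Cyp3a13 alone among the 12 rose.

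Among 5 members of steroid hormone synthesis 1 fell, and 4 were dim and not called. Cyp17a1, the 17α-hydroxylase and 17,20-lyase, lay between 5.04 and 9.67 (median 5.71) in tumor-bearing livers and between 5.21 and 11.53 (median 8.07) in controls. Control livers were widely spread and the groups overlapped, yet 23 of 25 pairs were lower in the tumor-bearing mouse. Cyp17a1 fell by 2.11 ± 0.28 (adjusted p = 1.65e-06). Cyp11a1, Cyp11b1, Cyp11b2 and Cyp21a1, enzymes of the adrenal cortex and gonads, changed by -0.14, -0.13, -0.09 and -0.08 with all pairs. Cyp2g1, known from olfactory mucosa and also expressed in mouse liver, lay between 7.31 and 9.92 (median 8.55) against 4.74 to 11.38 (median 10.58). It fell by 1.78 ± 0.28 (adjusted p = 1.66e-05). Without outlying arrays the 2 groups of Cyp2g1 did not overlap (7.48 to 9.92 against 10.00 to 11.38), and it fell in 20 of 20 pairs.

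Both measured retinoic acid hydroxylases were lower. Cyp26b1 lay between 4.56 and 7.86 (median 5.91) in tumor-bearing livers and between 5.59 and 8.75 (median 7.33) in controls, with overlap, and fell by 1.02 ± 0.25 (adjusted p = 0.0030). Cyp26a1, the retinoic acid-inducible form, ran from 8.34 to 11.43 (median 9.76) against 5.08 to 11.71 (median 10.71). Its change of -0.63 ± 0.34 was not called with all pairs, and it fell by 0.92 ± 0.22 in 16 of 20 pairs without outlying arrays. The 250 bases before the start of Cyp26a1 (RefSeq, GRCm38.p6) are shown because the gene is known for a retinoic acid response element there. Capitals mark the direct repeat AGNTCANNNNNAGNTCA found on the opposite strand, 32 to 16 bases before the start.

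Cyp26a1, chr19:37697558-37697807, plus strand: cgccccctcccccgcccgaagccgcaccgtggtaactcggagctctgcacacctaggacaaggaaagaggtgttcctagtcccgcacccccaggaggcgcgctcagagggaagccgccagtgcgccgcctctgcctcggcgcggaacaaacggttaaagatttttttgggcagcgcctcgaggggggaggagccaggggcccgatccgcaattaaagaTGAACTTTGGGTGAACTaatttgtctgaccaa

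Searched on both strands, that repeat was present in 2 of the 52 members with a promoter in the RefSeq table (Cyp26a1 and Cyp2c50) and in 0.211 percent of all 27025 promoters. A match is a description of these letters only. None of the 3 vitamin D hydroxylases (Cyp2r1, Cyp24a1, Cyp27b1) was called in liver, with changes between -0.14 and 0.24.

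The Cyp3a subfamily, the main drug-metabolising group, split into members that fell and 1 that rose. Cyp3a13 lay between 9.65 and 11.44 (median 10.96) in tumor-bearing livers and between 4.97 and 10.67 (median 10.06) in controls. It rose by 1.08 ± 0.29 (adjusted p = 0.0088), in 24 of 25 pairs, and by 0.74 ± 0.09 in 20 of 20 pairs without outlying arrays. Cyp3a16 ran from 7.56 to 10.27 (median 9.14) against 6.79 to 10.94 (median 10.34), and fell by 1.04 ± 0.20 (adjusted p = 3.74e-04). Cyp3a44, like Cyp3a16 a female-predominant gene, ran from 8.98 to 11.27 (median 10.08) against 5.16 to 11.77 (median 11.14), and fell by 0.82 ± 0.27 (adjusted p = 0.0317). Both fell in 23 of 25 pairs, and the groups of all 3 genes overlapped. The 2 brightest members of the subfamily moved little. Cyp3a11, the major constitutive form, lay at medians of 14.26 and 14.20 and was not called (0.19 ± 0.13, and 0.07 ± 0.03 without outlying arrays), and Cyp3a25 fell by 0.25 ± 0.03 without outlying arrays.

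The 250 bases before the starts of Cyp3a16, Cyp3a44 and Cyp3a13 are shown, since the first pair fell together and the last rose. Capitals mark TATAAA on the gene's own strand.

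Cyp3a16, chr5:145469724-145469973, minus strand: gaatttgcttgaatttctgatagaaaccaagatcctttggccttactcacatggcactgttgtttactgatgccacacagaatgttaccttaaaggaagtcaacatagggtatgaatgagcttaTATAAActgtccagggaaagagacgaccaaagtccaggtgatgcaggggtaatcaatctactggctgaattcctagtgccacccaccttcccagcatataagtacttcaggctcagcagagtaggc
Cyp3a44, chr5:145805875-145806124, minus strand: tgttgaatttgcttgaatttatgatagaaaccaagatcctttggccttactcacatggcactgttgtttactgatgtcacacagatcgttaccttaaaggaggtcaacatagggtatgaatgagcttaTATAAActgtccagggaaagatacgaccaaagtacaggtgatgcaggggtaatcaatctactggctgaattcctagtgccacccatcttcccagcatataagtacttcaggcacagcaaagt
Cyp3a13, chr5:137921620-137921869, minus strand: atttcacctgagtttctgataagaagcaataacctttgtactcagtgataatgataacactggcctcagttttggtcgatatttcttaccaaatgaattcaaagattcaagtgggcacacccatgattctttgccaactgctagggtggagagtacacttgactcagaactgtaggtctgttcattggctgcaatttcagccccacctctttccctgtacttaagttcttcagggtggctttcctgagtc

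Aligned over their length, the Cyp3a16 and Cyp3a44 stretches were identical at 92.9 percent of positions, and that of Cyp3a13 matched them at 56.2 and 54.5 percent. Cyp3a11, which was not called, matched them at 76.2 and 71.7 percent. TATAAA stood 126 to 121 bases before the start of Cyp3a16 and 122 to 117 before that of Cyp3a44, and these letters are not in the Cyp3a13 stretch. The letters did not follow the calls in the other members of the subfamily. Cyp3a11 held TATAAA 234 to 229 bases before its start, and Cyp3a25, which fell without outlying arrays, did not hold it. A part of these letters in the changes was not tested. TATAAA was found in 13 of 52 P450 promoters and in 8.12 percent of all promoters. Cyp3a16 and Cyp3a44 are near-identical copies and their probe sets may share signal, so their separate values are uncertain. The same holds for other close copies in the Cyp2b, Cyp2c and Cyp2d clusters, such as Cyp2b9 and Cyp2b13.

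In the Cyp2 family, the CAR target Cyp2b10 ran from 5.94 to 9.90 (median 7.61) in tumor-bearing livers and from 4.79 to 10.27 (median 8.58) in controls. The groups overlapped, and Cyp2b10 fell by 0.76 ± 0.24 (adjusted p = 0.0261). Its other probe sets changed by -1.23 ± 0.21 and -1.18 ± 0.21 with all pairs, each called lower. The female-predominant Cyp2b9 and Cyp2b13 fell by 0.47 ± 0.06 and 0.42 ± 0.08 without outlying arrays. Among 11 Cyp2c members, which include arachidonic acid epoxygenases, Cyp2c38 alone fell with all pairs (-0.70 ± 0.14, 24 of 25 pairs lower), and 7 fell without outlying arrays. The largest of these were Cyp2c37 (-0.80 ± 0.09) and Cyp2c38 (-0.76 ± 0.09), followed by Cyp2c68 (-0.51 ± 0.06). The bright Cyp2c70, which makes the muricholic acids of rodent bile, was not called (0.02 ± 0.02 without outlying arrays), nor was Cyp2c23. Of 8 Cyp2d members, Cyp2d40 rose by 0.51 ± 0.07 in 24 of 25 pairs and Cyp2d12 fell by 0.39 ± 0.10. Both were dim, with tissue means of 5.73 and 4.85. Without outlying arrays Cyp2d10, Cyp2d13 and Cyp2d22 also fell, by 0.13 to 0.28. Among the remaining members of the family, Cyp2a12 (-0.21 ± 0.02), Cyp2j5 (-0.15 ± 0.02) and Cyp2j9 (-0.15 ± 0.05) fell without outlying arrays. Cyp2j6, Cyp2j11, Cyp2j13, Cyp2s1, Cyp2u1, Cyp20a1, Cyp4x1, Cyp2b19, Cyp2c55, Cyp2c65, Cyp2d9, Cyp2d26 and Cyp2d34 were called in neither set. A second probe set of Cyp2j6 fell by 0.20 ± 0.05 without outlying arrays, in 17 of 20 pairs, and a second one of Cyp2u1 by 0.16.

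Hepatocytes of the perivenous zone, around the central vein, are known for xenobiotic P450 enzymes such as Cyp2e1 and Cyp1a2, and Cyp2f2 is known as a periportal gene of mouse liver. Cyp2e1, the ethanol-metabolising enzyme, was the brightest member (tumor-bearing 13.96 to 14.38, control 14.20 to 14.48) and fell by only 0.13 ± 0.02 (adjusted p = 0.0363), in 23 of 25 pairs. Cyp1a2, the constitutive aryl hydrocarbon receptor target of liver, had medians of 12.13 and 12.95 and fell by 0.79 ± 0.07 in 20 of 20 pairs without outlying arrays. Cyp1a1 fell by 0.24 ± 0.04 there, and Cyp1b1 changed by -0.02 ± 0.04. Cyp2f2, also known as the naphthalene-activating enzyme of lung, had medians of 12.74 and 13.51 and fell by 0.86 ± 0.14 in 20 of 20 pairs without outlying arrays. Of 7 perivenous markers outside the family, 2 fell with all pairs and 6 without outlying arrays. Of 5 measured periportal markers outside the family, 1 rose with all pairs, and 2 rose and 1 fell without outlying arrays. The part of these zones in the P450 changes was not tested.

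Calls were also counted by the level of the transcript. Without outlying arrays 20 of the 24 members in the top 5 percent of liver genes by level fell. The changes of all 24 lay between -0.86 and 0.07 with a median of -0.30. Among the 25 other members above the median gene, 17 fell and 2 rose, with changes between -4.68 and 0.74. Among the 24 below the median gene 4 fell and 2 rose. Brighter genes fell more often in general: 29.97 percent of all 9097 genes at or above the median level, against 18.9 percent of all genes. At that level 37 of 49 members fell (75.5 percent). The top 5 percent was not counted separately over all genes, so the step between the 2 upper classes has no background beside it. Cyp4a14, Cyp17a1, Cyp2g1, Cyp7b1 and the other members with the largest decreases lay below the top 5 percent. The level was the mean over tumor-bearing and control arrays together, so a large fall itself lowers a gene's level.

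Partners of the family fell as well without outlying arrays. Of 14 genes of electron transfer to P450 and of heme metabolism, none passed with all pairs and 8 fell without outlying arrays, beside 41 of the 73 members and 18.9 percent of all genes. Cyb5b, the outer mitochondrial cytochrome b5, changed by -0.26 ± 0.17 with all pairs and fell by 0.38 ± 0.04 without outlying arrays. Hmox1, Blvra and Urod, of heme breakdown and synthesis, were called in neither set. Of 22 regulators of P450 genes, 1 rose with all pairs, and 2 rose and 9 fell without outlying arrays. Tiparp, an aryl hydrocarbon receptor target and repressor, rose by 0.35 ± 0.09 (adjusted p = 0.0105). Cebpb, the C/EBP factor of the acute phase, rose by 0.33 ± 0.08 and Foxa2, a liver-enriched forkhead factor, fell by 0.20 ± 0.04 without outlying arrays. Arnt, the aryl hydrocarbon receptor's partner, was not called.

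Across the 25 liver pairs, within-pair changes of the 8 members with the largest called change were set against the change of the acute phase list, a family of 8 relations. With all pairs 5 passed by Pearson's r (permutation test, two-sided, adjusted), but 4 of them rested on the 2 pairs farthest from the median acute phase change (highest 5.07, median 1.30). Without these 2 pairs r was -0.20 for Cyp2g1, -0.05 for Cyp7b1, 0.07 for Cyp3a16 and 0.26 for Cyp39a1. Cyp3a13 had r = 0.82 (permutation p = 1e-05, the smallest the permutations can give, adjusted p = 8e-05) and Spearman's rho = 0.64 (permutation p = 8.4e-04), and r = 0.48 without those 2 pairs. Without outlying arrays Cyp3a13 kept a positive r of 0.58 (rho = 0.51) and Cyp4a14 had r = -0.55 (rho = -0.56), each with adjusted permutation p = 0.0446 for r and 0.0801 for rho. Without their 2 farthest pairs these r values were 0.35 and -0.45. Within the second identifier series none of the 8 passed, with r = 0.65 for Cyp3a13 (adjusted permutation p = 0.0621) and r = -0.24 for Cyp4a14. Within the first series r was 0.82 for Cyp3a13 and 0.38 for Cyp4a14, but 0.50 and -0.58 without its 2 farthest pairs.

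In breast, tumor tissue was compared with whole normal breast. With all 25 pairs 30 of 73 members fell and 7 rose, against 32.3 percent lower and 30 percent higher calls among all genes, and without outlying arrays 31 fell and 10 rose (34.8 and 31 percent of all genes). In either direction 37 members (50.7 percent) were called against 62.3 percent of all genes, so the share of members called was below the background. The median change of the members was -0.13 against -0.033 for all genes. Few P450 transcripts were bright in breast: 10 members reached the level of the median gene, and 30 of the 37 called members lay below it. The first identifier series gave 15 lower and 6 higher members and the second 28 and 7, without a share of all genes beside them.

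The cell types of the 2 tissues differed widely. The adipocyte list fell in 8 of 8 members by 3.42 ± 0.31 (control means 10.16 to 12.73, tumor means 6.91 to 11.63), and the skeletal muscle list in 7 of 7 by 2.68 ± 0.70. The luminal epithelium list rose in 9 of 10 members by 1.75 ± 0.18. All measured T cell and B cell markers were lower as well (by 1.49 ± 0.31 and 1.47 ± 0.36 on average), and the endothelium list in 6 of 7. The 3' to 5' differences of Gapdh and actin were lower in tumors by 0.76 ± 0.17 and 0.39 ± 0.08. The part of these in the breast changes was not tested, and the loss of a cell type and a fall per cell cannot be told apart.

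Cyp2e1 had the largest breast change of the family. It lay between 5.23 and 13.33 (median 8.53) in tumors and between 11.46 and 13.56 (median 13.05) in control breast. Controls were all high while tumors spread over most of the array's range, and all 25 pairs were lower in the tumor. Cyp2e1 fell 21.8-fold, by 4.44 ± 0.45 on the log2 scale (adjusted p = 1.54e-09). It fell by 3.94 ± 0.94 in the first identifier series and by 4.78 ± 0.43 in the second.

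Within each breast group, Cyp2e1 levels ran with the mean of the adipocyte list. This relation was added after the data had been seen, in a family of 8 with Cyp2f2 and thymus. Among tumors r was 0.95 (permutation p = 1e-05, the smallest the permutations can give, adjusted p = 2.67e-05) and rho 0.92, and r was 0.93 without the 2 arrays farthest from the median. Among control breasts r was 0.85 and rho 0.59 (permutation p = 0.00257), and r fell to 0.51 without the 2 farthest arrays. Within the identifier series r was 0.99 and 0.86 among tumors and 0.86 in each series among controls. Cyp2f2, which lay between 4.88 and 11.56 (median 7.02) in tumors and between 6.58 and 10.24 (median 8.24) in controls, fell by 1.12 ± 0.35 (adjusted p = 0.0052) in 18 of 25 pairs. Its r with the adipocyte list was 0.44 among tumors and 0.49 among controls (rho 0.62 and 0.59, adjusted permutation p = 0.0254 and 0.0135 for r). Within the first and second identifier series this r was 0.91 and 0.32 among tumors and 0.22 and 0.75 among controls.

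**Figure D2:**
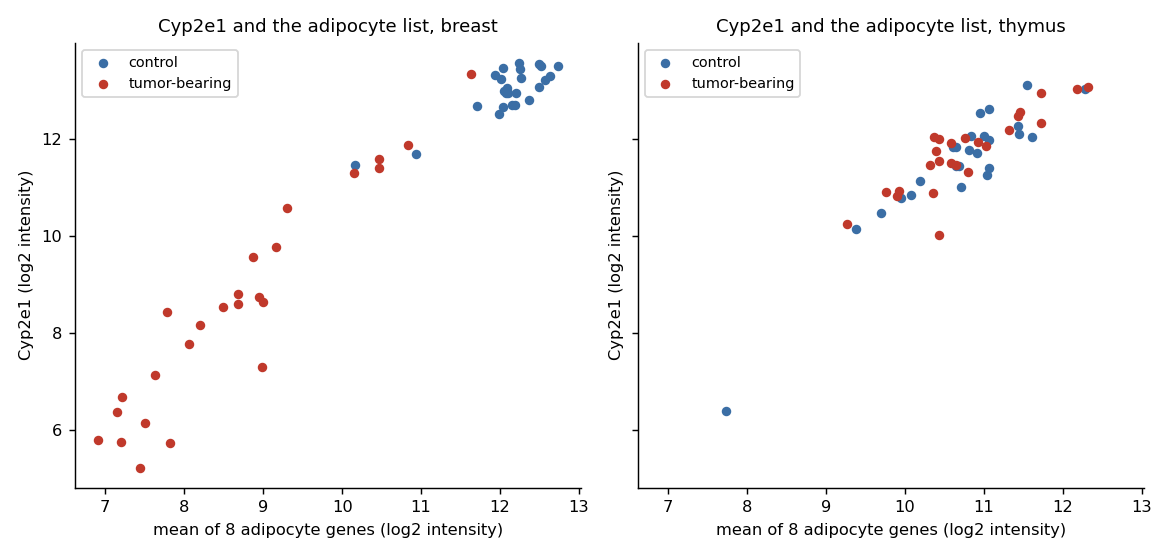
Cyp2e1 log2 level against the mean log2 level of the adipocyte list, 1 point per array, for breast and thymus with tumor-bearing and control mice in separate colours. In breast the tumors run from 5.23 to 13.33 for Cyp2e1 along the adipocyte list, and the controls sit at its upper end.

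The hydroxylases Cyp4b1, Cyp4v3 and Cyp27a1, which act on fatty acids and sterols, fell in tumors, while Cyp4f16, Cyp7b1 and Cyp39a1 of the same classes rose. Cyp4b1 lay between 7.20 and 9.95 (median 8.35) against 8.61 to 11.03 (median 10.36), and fell by 1.95 ± 0.21 (adjusted p = 5.98e-09). Cyp4v3 lay between 7.32 and 9.80 (median 7.91) against 8.36 to 10.29 (median 9.86), and fell by 1.73 ± 0.16. Cyp27a1, the sterol 27-hydroxylase, lay between 6.50 and 8.26 (median 7.08) against 7.70 to 9.44 (median 9.18), and fell by 1.79 ± 0.15 (adjusted p = 1.41e-10). A dim second probe set of Cyp27a1 was not called (-0.02). All 3 genes fell in 23 or 24 of 25 pairs. The groups overlapped at their edges for Cyp27a1 and more widely for Cyp4b1 and Cyp4v3. Cyp4f13 fell by 0.56 ± 0.07, and Cyp4f14, Cyp4f15 and Cyp4f39 by 0.20 to 0.22.

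The Cyp2j subfamily of arachidonic acid epoxygenases fell in 4 of 5 members. Cyp2j9 lay between 4.66 and 6.36 (median 5.01) in tumors and between 5.46 and 7.70 (median 6.87) in controls, and fell by 1.71 ± 0.16 (adjusted p = 2.67e-10). Cyp2j6 lay between 5.66 and 6.94 (median 6.13) against 6.04 to 7.53 (median 7.04), and fell by 0.73 ± 0.09 in 25 of 25 pairs. Cyp2j11 and Cyp2j13 fell by 0.16 and 0.13, and Cyp2j5 was not called. Of the 11 Cyp2c members, all below the median gene, 6 fell, and Cyp2c23, an epoxygenase known from kidney, fell most. It lay between 3.75 and 4.63 (median 4.01) against 4.20 to 6.10 (median 4.50), and fell by 0.58 ± 0.09.

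Among the members that rose, Cyp2d10 and Cyp2d9, paralogs of the mouse Cyp2d cluster, had large changes. Cyp2d10 lay between 4.06 and 7.16 (median 5.62) in tumors and between 3.77 and 6.20 (median 4.47) in controls, and rose by 1.08 ± 0.19 (adjusted p = 1.04e-05) in 22 of 25 pairs. Cyp2d9 lay between 4.88 and 6.80 (median 5.75) against 4.39 to 5.68 (median 4.77), and rose by 0.89 ± 0.11 in 24 of 25 pairs. Both stayed below the median gene of breast. Cyp7b1 lay between 5.56 and 8.36 (median 6.85) against 4.73 to 8.33 (median 5.87), and rose by 0.97 ± 0.18 (adjusted p = 2.36e-05) in 23 of 25 pairs. A dimmer Cyp7b1 probe set was not called (-0.04). Cyp4f16 lay between 7.03 and 8.45 (median 7.87) against 6.33 to 8.24 (median 7.29), and rose by 0.60 ± 0.10. Cyp39a1 (0.47 ± 0.15), Cyp26a1 (0.29 ± 0.09) and Cyp20a1 (0.23 ± 0.06), an orphan P450, also rose. The Cyp20a1 probe sets disagreed: 2 rose and a dim one fell by 0.16 ± 0.05 (adjusted p = 0.0062). None of these genes separated the groups without overlap.

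**Figure D3:**
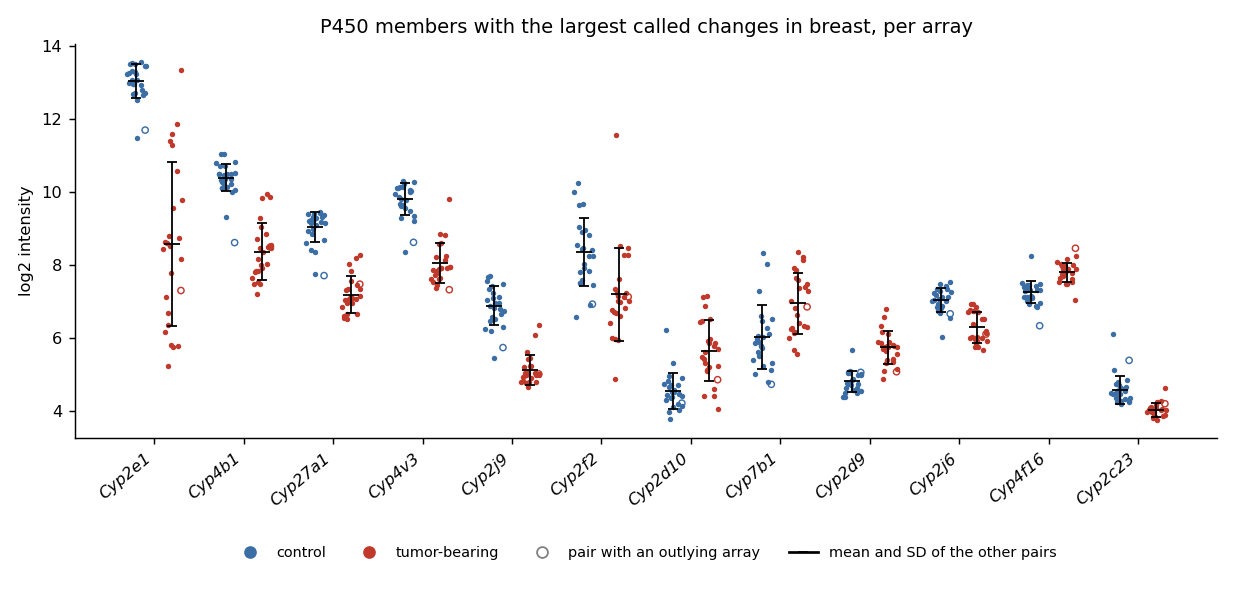
Log2 levels of the 12 P450 genes with the largest called breast change, 1 point per array, tumor tissue and control breast side by side. Open circles mark the pair with an outlying array, and black marks give mean ± SD of the other pairs. Cyp2e1 tumors spread from 5.23 to 13.33 and controls lay at 11.46 or above, so the upper tumors overlap the controls. Cyp2d10, Cyp2d9, Cyp7b1 and Cyp4f16 rose in tumors.

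Of the Cyp1 family in breast, Cyp1b1, an estrogen hydroxylase of extrahepatic tissue and among the brightest members there, lay at medians of 9.51 in tumors and 9.27 in controls, and was not called (0.14 ± 0.23). Of its 2 other probe sets 1 rose (0.71 ± 0.23, and 0.60 ± 0.21 without outlying arrays) and 1 was not called (0.02 ± 0.05), so its probe sets disagreed. Cyp1a1 fell by 0.46 ± 0.07 from a control median of 5.00. Cyp26b1 fell by 0.55 ± 0.15. Of the 22 regulators 12 fell and 3 rose, among them Nr1h3 (LXRα), which fell by 1.97 ± 0.14, and Cebpa, which fell by 2.38 ± 0.21. Of the 14 electron transfer and heme genes 8 fell and 3 rose. Cyb5b fell by 1.61 ± 0.14 and Alas1, the first enzyme of heme synthesis, by 1.49 ± 0.11.

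The liver and breast changes of each member were also set against each other, and the share of members that differed was close to that of all genes. A test of the difference between the 2 changes (limma, interaction) called 27 of 73 members (37.0 percent), against 40.5 percent of all genes. Without outlying arrays it called 46 (63.0 percent, all genes 58.6 percent), and 29 with mice grouped by 15 shared identifier stems (39.7 percent, all genes 36.5 percent). Breast lay above liver in 13 of the 27 and below it in 14.

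Oxysterol 7α-hydroxylases were called in opposite directions. Cyp7b1 fell in liver and rose in breast, a difference of 2.22 (adjusted p = 2.58e-09), and Cyp39a1 did the same with a difference of 1.44 (adjusted p = 1.21e-05). Without outlying arrays 5 more members were lower in liver and higher in breast: Cyp26a1, Cyp2d10, Cyp2d13, Cyp3a44 and Cyp7a1. Of these Cyp26a1 differed by 1.27 and Cyp3a44 by 1.27. Cyp3a44, Cyp7a1 and Cyp2d13 were dim in breast, with changes of 0.24, 0.13 and 0.11 there. Cyp7b1, Cyp39a1 and Cyp26a1 also lay below the median gene of breast, with tissue means of 6.46, 6.98 and 5.38. The breast change of Cyp39a1 was 0.27 ± 0.22 in the first identifier series and 0.60 ± 0.20 in the second. Cyp4a14 differed by 4.61 (adjusted p = 1.48e-19), but its breast level lay between 3.50 and 4.45, close to the floor set on low intensities. Cyp2e1 fell in both tissues and differed by -4.31. Cyp4f16 rose in both, and 6 members fell in both with all pairs and 17 without outlying arrays. The share of all genes with the same pair of calls was not counted, so the joint counts have no background beside them. Without outlying arrays 18.9 percent of all genes fell in liver, and in breast 34.8 percent fell and 31 percent rose.

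**Figure D4:**
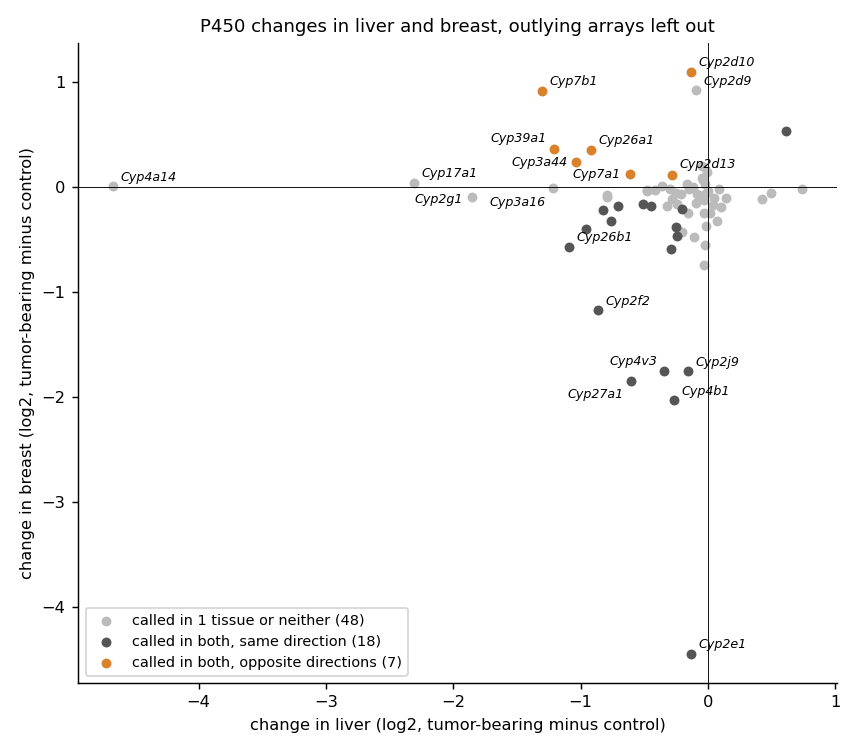
Change in breast against change in liver for the 73 P450 genes, as log2 differences without outlying arrays, coloured by the calls in both tissues. The 7 orange points fell in liver and rose in breast, led by Cyp7b1, and Cyp4a14 and Cyp2e1 lie far along 1 axis each.

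In spleen 14 members fell and 4 rose with all pairs, against 18.3 percent lower and 22.4 percent higher calls among all genes, and 17 fell and 10 rose without outlying arrays (26.6 and 29.5 percent). Without the pair as a block 7 fell and 2 rose, without a share of all genes beside these counts. In the same spleens the neutrophil list rose by 2.36 ± 0.21 (10 of 10 members) and the erythroid list by 0.95 ± 0.22 (4 of 5), and their part was not tested. Cyp27a1 lay between 8.95 and 9.83 (median 9.45) against 9.59 to 10.28 (median 9.91) and fell by 0.47 ± 0.05 in 25 of 25 pairs. Cyp4f13 lay between 6.94 and 7.57 (median 7.15) against 7.20 to 8.38 (median 7.67) and fell by 0.50 ± 0.06, also in 25 of 25 pairs. Cyp4v3 lay between 8.43 and 9.38 (median 8.79) against 8.50 to 9.75 (median 9.56) and fell by 0.64 ± 0.08.

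Bright single arrays marked other spleen members. Cyp2e1 ran from 5.22 to 13.73 (median 5.93) in tumor-bearing mice and from 5.31 to 12.62 (median 6.44) in controls, and fell by 0.99 ± 0.35 (adjusted p = 0.0177) in only 16 of 25 pairs. Cyp2d22 ran from 5.79 to 8.36 (median 6.26) against a control median of 6.54 and a highest control value of 10.61, and fell by 0.50 ± 0.19 with all pairs and by 0.25 ± 0.05 without outlying arrays. The highest Cyp2e1 values came from spleen control 13 and both mice of pair 21, which are outlying arrays. Without outlying arrays Cyp2e1 changed by -0.86 and was still called lower. Cyp2r1, the vitamin D 25-hydroxylase, fell by 0.47 ± 0.08. Cyp4b1 was among the members that rose (0.43 ± 0.16, and 0.64 ± 0.07 without outlying arrays), and it fell in breast. Cyp39a1 fell by 0.31 ± 0.09 and Cyp7b1 by 0.19 ± 0.07.

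In blood 2 members rose and 0 fell, against 8.66 percent higher and 4.27 percent lower calls among all genes. Without outlying arrays 3 rose and 0 fell, against 10.2 and 11.9 percent of all genes. At an unadjusted p under 0.05 (limma) there were 4 higher and 16 lower members with all pairs. Without outlying arrays there were 4 higher and 6 lower ones. No unadjusted share of all genes is given beside these counts. On 7 blood arrays, 5 of them controls, hepatocyte transcripts were high, as given under the other observations. Their part in the unadjusted counts was not tested. Both members that rose with all pairs belong to the Cyp4f subfamily. Cyp4f18 lay between 7.35 and 9.87 (median 7.95) in tumor-bearing mice and between 5.13 and 7.72 (median 6.30) in controls, and rose 3.56-fold, by 1.83 ± 0.22 (adjusted p = 3.38e-07). Cyp4f16 lay between 6.21 and 8.15 (median 6.57) against 4.98 to 6.26 (median 5.93), and rose by 0.86 ± 0.09 (adjusted p = 1.27e-07). Each was higher in 25 of 25 pairs, with a narrow overlap of the groups. The neutrophil list rose beside them by 2.51 ± 0.16 (7 of 10 members called), and its part was not tested. The other Cyp4f18 probe set was not called in blood (0.05 ± 0.12). In spleen Cyp4f18 was not called with all pairs (-0.35 ± 0.22) and fell by 0.60 ± 0.04 without outlying arrays, and Cyp4f16 was not called (-0.02 ± 0.06).

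In thymus 0 of 73 members were called in either set (limma), against 0.011 percent higher and 0 percent lower calls among all genes. At an unadjusted p under 0.05, 1 member was higher with all pairs and 2 without outlying arrays, and 0 were lower, again without an unadjusted share of all genes. Cyp2e1 and Cyp2f2 had the highest levels of the family there. Cyp2e1 lay between 10.01 and 13.07 (median 11.84) in tumor-bearing mice and between 6.38 and 13.11 (median 11.76) in controls, and Cyp2f2 between 8.55 and 13.74 (median 10.41) against 5.67 to 13.45 (median 9.70). The groups overlapped widely for both, with changes of 0.24 ± 0.30 and 0.76 ± 0.45. Cyp2e1 again ran with the adipocyte list, with r = 0.93 among controls and 0.86 among tumor-bearing mice (rho 0.81 and 0.82, adjusted permutation p = 2.67e-05 for each r). Without the 2 farthest arrays these r values were 0.83 and 0.82, and they lay between 0.79 and 0.96 within the identifier series. For Cyp2f2 r was 0.76 among tumor-bearing mice (rho 0.70, adjusted permutation p = 3.2e-05 for r, and r = 0.65 without the 2 farthest arrays). Among controls its r of 0.47 (rho 0.08, adjusted permutation p = 0.0248 for r) rested on the 2 farthest arrays, without which it was 0.04.

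**Figure D5:**
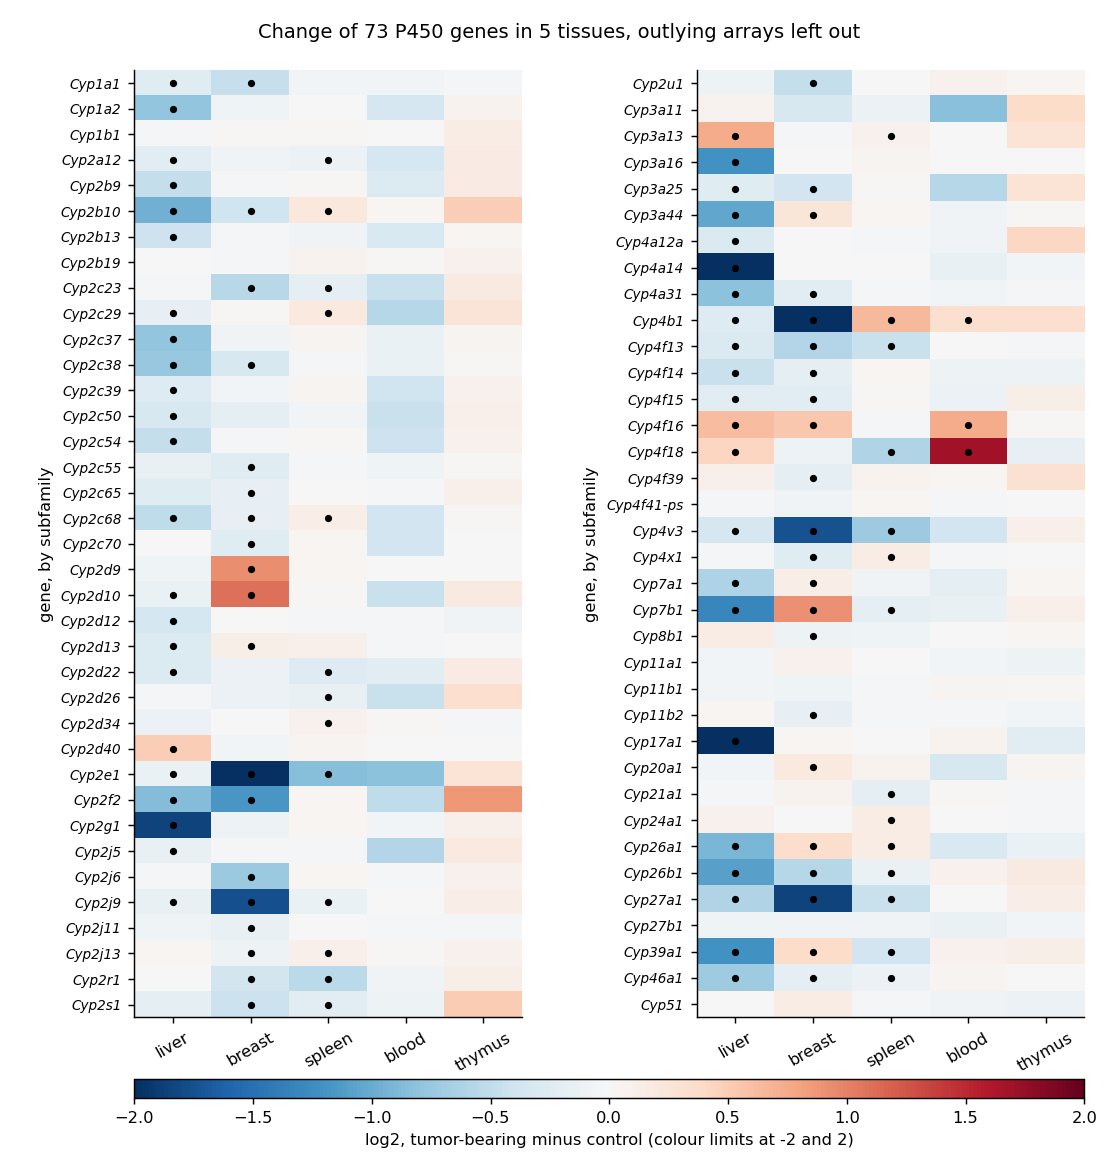
Change of each of the 73 P450 genes (rows, by subfamily) in 5 tissues (columns) without outlying arrays, as log2 tumor-bearing minus control, with colour limits at -2 and 2. Dots mark called changes: 45 in liver, 41 in breast, 27 in spleen, 3 in blood and 0 in thymus. Among all genes the calls made up 37.5, 65.8, 56.2, 22.2 and 0 percent in the same order.

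A joint test over liver, spleen, blood and thymus asked whether a member's change differed between these 4 tissues. It called 25 members (34.2 percent, all genes 29.1 percent) with all arrays, and 40 (54.8 percent, all genes 49.7 percent) without outlying arrays.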

How the data were processed

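RNA of 250 tissue samples was measured on Affymetrix whole-genome mouse arrays. Per the labels' protocols, RNA came from a Trizol extraction and was amplified to biotin-labelled cRNA in a single cycle. The authors deposited intensity values on a linear scale (5.17 to 47198). How they were summarised and normalized is not given in the sources used here. Separate scaling of each tissue would make levels incomparable between tissues, so none are compared.

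A floor was set at the 5th percentile of the intensities (11.3, or 3.50 on the log2 scale) before taking log2. This understates changes of dim genes. Of 45101 probe sets, 34958 carried 1 gene symbol, 932 several and 9211 none in the table used here. The highest-mean probe set stood for each gene (18194 genes, 98 P450 probe sets). Each tissue was fitted in R 4.3.3 (limma 3.58.1), blocked by the matched pair that the labels name, and Benjamini-Hochberg adjustment over all genes. The median correlation of mice of a pair, with group means removed, was 0.31 in liver, 0.08 in breast, 0.15 in spleen, 0.22 in blood and 0.25 in thymus. An array was outlying where its median Spearman correlation with its tissue lay more than 3 interquartile ranges below the first quartile, and its whole pair was left out. Differences between tissues were tested as interactions, treating the tissues of a mouse as independent. Relations across samples used 100000 permutations. Python 3.11.15, numpy 2.4.6, pandas 2.3.3, scipy 1.17.1, biopython 1.88 and matplotlib 3.10.9 were used. Promoters came from RefSeq (GRCm38.p6), where 52 of 73 members matched by symbol.

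Values of all arrays are given for the 12 members with the largest called change in liver and in breast and up to 4 in each other tissue. Members of other lists are named by smallest p, at most 4 per list and tissue. Members and lists were chosen with earlier results of these data known. The relation with the adipocyte list, the second identifier series without outlying arrays, the exclusions of single pairs and the values of P450 genes on outlying arrays were added after seeing the data.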

Additional observations from a re-analysis of the deposited data

Results flagged for a closer look

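Cyp7b1 and Cyp39a1 changed in opposite directions in liver and breast, and the difference itself was tested. The breast change minus the liver change was 2.22 for Cyp7b1 and 1.44 for Cyp39a1, as log2 differences (limma interaction, adjusted p = 2.58e-09 and 1.21e-05). With mice grouped by 15 identifier stems the differences were 2.25 and 1.34.

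Probe sets that carry several gene symbols were outside the comparisons above, and some of them changed. The probe set shared by Cyp4a31 and Cyp4a10, fatty acid ω-hydroxylases and PPARα targets, ran from 7.15 to 13.15 (median 9.51) in tumor-bearing livers and from 5.997 to 13.996 (median 13.47) in controls. It changed by -3.373 in liver and by -0.205 in breast (both called lower). The probe set of Cyp2a5 and Cyp2a4, coumarin and steroid hydroxylases, changed by -0.94 in liver. The probe set of Cyp4f37 and Cyp4f16 changed by 0.856 in liver and by 0.997 in breast, where it was called higher in both. Which gene of each pair gave the signal was not tested.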

How the results depend on the processing

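In liver 18 members were called with all pairs, against 45 without outlying arrays, 40 without pair 2, 43 without pairs 2 and 7, 42 in the second identifier series and 1 in the first. In breast 37 were called, against 7 when genes under the median level were left out (fewer members tested) and 21 in the first series. In spleen 18 were called, against 4 above the median level, 9 without the replicate block and 7 in the second series. In blood 2 were called, against 4 under quantile normalization and 4 above the median level. The difference between breast and liver was called for 27 members, against 46 without outlying arrays, and the difference over 4 tissues for 25, against 40. The relation with the acute phase list passed for 5 members, against 2 without outlying arrays, 3 in the first series, 0 in the second and 0 in the second without outlying arrays. Except where samples or genes were removed, the cause was not tested. For most of these settings the share of all genes called is not given here, so the counts do not set the family apart from other genes. Of 30 named changes none reversed in the settings run for it, and 16 kept direction and call in all of them. The first series of 10 pairs alone ended 12 of the calls, all in liver except Cyp4f16 in breast. Only 7 of its 10 liver pairs hold no outlying array. Dropping the replicate block for the matched pairs ended the calls of Cyp2b10 in liver (adjusted p = 0.111) and of Cyp2e1 (0.106) and Cyp2d22 (0.103) in spleen. In most control arrays 6 members in blood and 3 in breast lay at the floor, which understates their changes, and none did in liver, spleen or thymus.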

Other observations

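The outlying spleen controls held P450 transcripts that the other spleens lacked. In spleen control 21, 41 of 73 members lay above the range of the 47 spleen arrays that did not stand apart. In spleen control 13, 34 did. The same count was not made over all genes, so these counts do not set the family apart from other genes. Cyp11b1, the 11β-hydroxylase of the adrenal cortex, was at 12.58 in control 21 against 5.32 or less in those 47 arrays. Cyp11b2, the aldosterone synthase, was at 10.17 against at most 5.14, and Cyp21a1, the steroid 21-hydroxylase, at 11.39 against at most 6.82. The steroidogenic list averaged 11.62 there, against 7.36 to 7.89 elsewhere and 7.43 in control 13. Both controls were high in Cyp2j5 (13.54 in control 13 and 13.14 in control 21, at most 4.95 elsewhere), Cyp4a14 (12.33 and 11.86, at most 4.84 elsewhere) and Cyp2d26 (11.78 and 12.31, at most 4.81 elsewhere). Tumor-bearing spleen 21 was high in Cyp2f2 (14.04, at most 4.83 elsewhere) and Cyp2e1 (13.73). These values were picked after they had been seen.

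Hepatocyte transcripts marked single arrays outside liver. In blood 7 arrays, 5 of them controls, had a hepatocyte list mean over 2 log2 units above the tissue median. Cyp2e1 had a median of 10.90 on these arrays against 5.03 on the other 43, and Cyp3a11 10.54 against 5.40. Cyp2c70 lay between 5.28 and 8.36 on these arrays and between 3.57 and 5.27 on the others. In thymus 5 arrays, 1 of them a control, passed the same limit, with a Cyp3a11 median of 8.93 against 5.58 on the other 45, while Cyp2e1 (11.70 against 11.83) and Cyp2f2 (10.16 against 10.22) did not stand out there. In spleen the array was control 21. In breast control 3, Cyp3a25 was at 6.77 against 4.46 or less on the other 49 arrays, and Cyp3a11 at 8.46 against 6.69 or less.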
